A study of Mus musculus with 6 samples.

Results

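Genes of the distal part of mouse chromosome 15, from Oplah onward, were listed by position, and 46 of 49 listed genes had at least 1 probe set whose platform annotation gave that symbol alone. They are called members here. A further 391 genes were measured from Oplah to the end of the chromosome, and 18193 genes on the whole array. The region was proposed after 1 clone, A3, had been seen to read low there, so the members were in effect selected on A3 minus the mean of A1 and A4, and that difference is described below without a test. The cells were mouse embryonic stem (ES) cells of the line EBRTcH3, grown with leukemia inhibitory factor, in which the coding sequence of human WBSCR1, tagged with 3xFLAG, sat at the ROSA26 locus under a promoter that tetracycline keeps off. WBSCR1 encodes the initiation factor of translation that mice carry as Eif4h. Clones A1, A3 and A4 each gave 1 control array (with tetracycline) and 1 induced array (24 h without it), 6 arrays in all, so every group of arrays carried the same insertion and each clone and condition was read once. Removal of tetracycline and expression of the transgene cannot be told apart, and A3 is represented by a single clonal line.

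A clone of ES cells descends from 1 recombinant cell, so a property of that cell is shared by every array of the clone. RNA levels of many genes follow the number of gene copies, although feedback on a gene can weaken or strengthen that relation. The members are neighbours on a chromosome and not a pathway: they include subunits of general machines (RNA polymerase II, the spliceosome, the nuclear pore, the protein import pores of mitochondria), enzymes, regulators of cell division and secreted signals.

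Array medians lay between 5.11 and 5.19 log2. ES cell markers read at least 6 log2 in 10 of 10 genes, with a summed linear signal of 53400 to 55900 in the A3 arrays and 55300 to 58600 in the other arrays. Of these markers 6 were lower in A3, with Klf4 (-0.51 log2) and Esrrb (-0.45) the lowest. The other ES cell markers lay between -0.12 (Tdgf1) and 0.04 log2 (Sox2). The 5 markers of primitive endoderm all read below 6 log2 and were all lower in A3, at a summed 136 to 146 against 186 to 252. Trophectoderm markers summed to 378 to 386 against 440 to 488 (3 of 6 lower in A3), neural markers to 582 to 585 against 506 to 543 (2 of 4 lower) and fibroblast feeder markers to 258 to 274 against 244 to 293 (1 of 6 lower). Among the trophectoderm markers Krt8 (-1.05 log2) and Krt18 (0.04) themselves lie on chromosome 15 beyond Oplah, and without them the sums were 176 to 181 in A3 and 163 to 190 in the other arrays. The part of these levels in the members' values was not tested, and in RNA from whole cultures fewer cells of a type and less RNA per cell cannot be told apart.

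In A3 most members read lower than in A1 and A4, at a median ratio of 0.745. Of the 46 members, 41 had a lower mean in A3 and 37 had both A3 arrays below all 4 arrays of A1 and A4, while 1, Wnt7b, had both above. Over all 45037 probe sets, 16.6% were below and 19.8% were above in this way. Over all genes with a mean of at least 6 log2, counted by 1 probe set each, the shares were 28.8% and 24.7%. Nothing is read from that contrast because it proposed the region. The A3 shift is used here for the mean log2 signal of the 2 A3 arrays minus that of the 4 A1 and A4 arrays, with each member represented by its probe set of highest mean. Its median over the 46 members was -0.42 log2. Among the 45 members with a mean of at least 6 log2 it was also -0.42 log2, which is the linear ratio above, with quartiles of -0.70 and -0.24 and a range of -1.14 to 0.16 log2. The SD of a member over the 4 A1 and A4 arrays had a median of 0.0898 log2, from 0.0245 for Dgat1 to 0.302 for Ccdc134, and the shift was larger than that SD for 39 of the 45 (86.7%), beside 69.4% of all 9738 genes of at least 6 log2, from which nothing is read for the same reason. Averaged over these 45 members, the signal was 9.66, 9.61, 9.58 and 9.67 log2 in control A1, control A4, induced A1 and induced A4 and 9.17 and 9.18 log2 in control and induced A3. Genes of the other autosomes averaged between 8.50 and 8.55 log2 on every array.

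**Figure D1:**
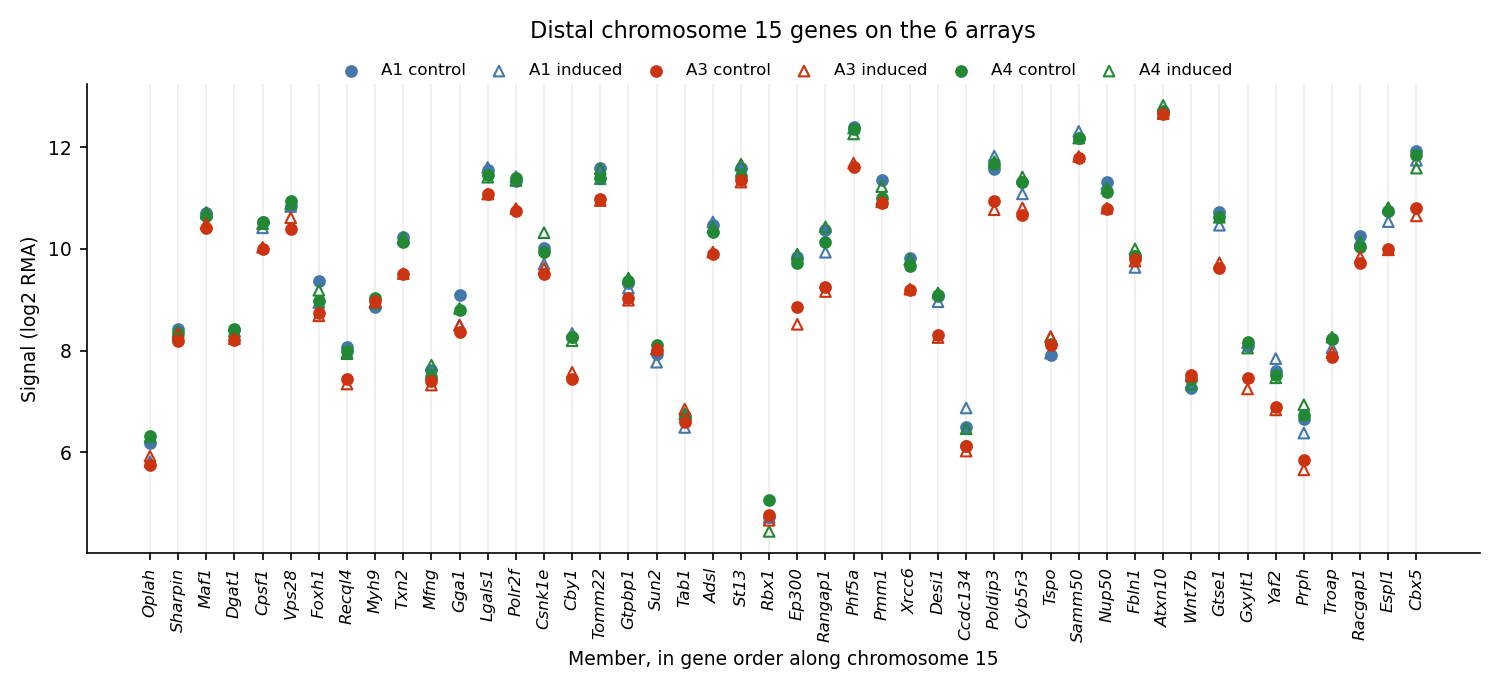
Log2 signal (vertical axis, RMA) of the 46 members in gene order along chromosome 15 (horizontal axis), with filled circles for control arrays, open triangles for induced arrays, and A1 in blue, A3 in red and A4 in green. The A3 points lie below the other 4 for 37 members and above them for Wnt7b.

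By the probe set of highest mean, regulators of transcription and RNA processing were the role with the lowest median. All 9 measured members of this role (Maf1, Cpsf1, Foxh1, Polr2f, Ep300, Phf5a, Poldip3, Yaf2 and Cbx5) had both A3 arrays below the rest, with a median shift of -0.70 log2. With the median over all probe sets of a gene, Cbx5 (-0.26) and Polr2f (-0.34 log2) were closer to no shift. Roles also differed in signal, with a median of 10.61 log2 for this role and 8.10 log2 for metabolic enzymes. No ranking of roles is therefore read from the A3 shift, which also proposed the region. Below, array values are given in the order control A1, control A4, induced A1, induced A4, and then control and induced A3. Ep300, a histone acetyltransferase and transcriptional coactivator, read 9.84, 9.72, 9.89 and 9.89 log2, and 8.86 and 8.52 log2 in A3. Its shift of -1.14 log2 was the lowest of the members, the A3 arrays stood apart from the others by more than the range among the others, and the induced A3 array was the lowest of all 6. Cbx5, the heterochromatin protein HP1 alpha, which binds methylated histone H3, read 11.92, 11.85, 11.75 and 11.59 log2, and 10.80 and 10.65 log2 in A3. That was a shift of -1.05 log2 for the probe set of highest mean. The other 4 Cbx5 probe sets gave -0.72, -0.26, -0.24 and 0.04 log2, the last of them at a mean of 4.45 log2, so the direction was shared by all but the dimmest and the size was not shared.

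Short stretches just before the annotated transcript starts are shown for the 4 members with the lowest shift and for 3 of the highest. The shift is that of the probe set of highest mean, and the ends of that range can be compared as sequence. They were read from RefSeq promoter windows of assembly GRCm38.p6 (250 bases before to 50 after a start), which held 37 windows of 30 listed members, and each is the 30 bases directly before a start, 5′ to 3′ on the strand of the gene. Wnt7b, Tspo and Tab1 were not matched. Capitals mark a GC box (GGGCGG) or a CCAAT box (CCAAT) on either strand.
Ep300: tttttcgcccccgcctccttgtggcgatga
Cbx5: cccaggATTGGttgcgcaggcgcagggaag
Rangap1: cgctccggcttgaacaaatcaaatcgaagg
Gtse1: caccgagagcgtctcctgtttaaacaggcc
Sun2: tgggctgtcagcgttgattgacaggcgcac
Myh9: agccggcggcgagctgtagacCCGCCCtcc
Fbln1: tgcctgcatccccgcaggagagtctgggtg
The positions are chr15:81586184-81586213 (plus strand) for Ep300, chr15:103239853-103239882 (minus) for Cbx5, chr15:81729920-81729949 (minus) for Rangap1 and chr15:85859677-85859706 (plus) for Gtse1. Those of the other group are chr15:79742537-79742566 (minus) for Sun2, chr15:77842176-77842205 (minus) for Myh9 and chr15:85205919-85205948 (plus) for Fbln1. Within these 30 bases a marked motif stood in 1 of the lower group, Cbx5, and in 1 of the higher group, Myh9. Myh9 is in the higher group only by its probe set of highest mean (0.02 log2). On 4 of its 5 probe sets it was lower in A3, by shifts between -0.14 and -0.61 log2.

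Poldip3, a polymerase delta interacting protein that also takes part in mRNA export, read 11.58, 11.66, 11.83 and 11.72 log2, and 10.94 and 10.77 log2 in A3. All 6 of its probe sets were lower in A3, between -0.45 and -0.89 log2. Phf5a, a small subunit of the SF3B splicing complex, read 12.40, 12.36, 12.38 and 12.26 log2, and 11.61 and 11.69 log2 in A3, a shift of -0.70. Both genes were separated from A1 and A4 on every array. Yaf2, a partner of Polycomb repressive complexes, had a shift of -0.75 log2. Polr2f, a subunit shared by the nuclear RNA polymerases, had -0.60 log2, and its second probe set, at 6.94 log2, had -0.08. Cpsf1, the largest subunit of the cleavage and polyadenylation specificity factor, had -0.47 log2. Foxh1, the forkhead factor through which Nodal signals reach Smad target genes, had -0.41 log2 with all 3 probe sets lower. Maf1, the repressor of RNA polymerase III, had the smallest shift of this role, -0.24 log2, and its A3 arrays (10.41 and 10.50) still lay below the others (10.64 to 10.72).

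The 6 members that act in DNA repair and cell division were likewise all below in both A3 arrays, with a median of -0.59 log2. Gtse1, a microtubule-binding protein of the G2 and S phases, read 10.74, 10.63, 10.47 and 10.62 log2, and 9.62 and 9.73 log2 in A3, a shift of -0.94. Espl1, the separase that cuts cohesin at anaphase, read 10.74, 10.74, 10.54 and 10.81 log2, and 10.01 and 9.98 log2 in A3, a shift of -0.72. For these genes the lowest A1 or A4 array was the induced A1 array, and it was still above A3. Recql4, a RecQ helicase, had a shift of -0.60 log2 and Xrcc6, the Ku70 subunit that binds DNA ends, -0.58 log2. Racgap1, a subunit of centralspindlin needed for cytokinesis, had -0.37 and Troap, a spindle protein, -0.28 log2.

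Of the 3 members of the nuclear envelope and pore, Rangap1 and Nup50 were below and Sun2 overlapped the other arrays. Rangap1, the GTPase activating protein of Ran, read 10.37, 10.13, 9.94 and 10.43 log2, and 9.25 and 9.16 log2 in A3, a shift of -1.01. A second Rangap1 probe set gave -0.78, and the remaining one, at a mean of 5.84 log2, gave 0.26. Nup50, a nuclear pore protein that takes part in import, had a shift of -0.44 log2 with all 3 probe sets lower. Sun2, which links the nuclear lamina to the cytoskeleton, read 7.93, 8.11, 7.77 and 8.03 log2, and 8.01 and 8.04 log2 in A3. The A3 arrays of Sun2 lay inside the range of the others, and both of its probe sets were slightly higher in A3.

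Among the 5 mitochondrial and redox members, 4 were below, with a median of -0.52 log2 for the role. Txn2, mitochondrial thioredoxin, read 10.23, 10.14, 10.19 and 10.22 log2, and 9.51 and 9.52 log2 in A3, a shift of -0.68 with all 3 probe sets lower. Tomm22, a receptor of the outer membrane import pore, had -0.52, Cyb5r3, a cytochrome b5 reductase, -0.54 and Samm50, which inserts barrel proteins into the outer membrane, -0.41 log2. The other Cyb5r3 probe sets gave -0.565, -0.21 and 0.22 log2, the last at a mean of 5.71 log2 with both A3 arrays above. The shift of Samm50 was close to the median of all members: it read 12.18, 12.19, 12.32 and 12.18 log2, and 11.79 and 11.82 log2 in A3. Tspo, the translocator protein of the outer membrane, went against the rest of the role at 7.92, 8.14, 7.95 and 8.27 log2, and 8.11 and 8.28 log2 in A3. Its shift was 0.13 log2, the induced A3 array was only just above the induced A4 array, and its other 2 probe sets gave -0.08 and -0.17 log2.

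All 6 metabolic enzymes were lower in A3 and 5 were below on both arrays, with a median of -0.28 log2. Gxylt1, a xylosyltransferase that modifies Notch, read 8.08, 8.16, 8.15 and 8.05 log2, and 7.45 and 7.24 log2 in A3, a shift of -0.76. Adsl, adenylosuccinate lyase of purine synthesis, had -0.53 log2. Smaller shifts were those of Oplah, a 5-oxoprolinase (-0.32), Mfng, a glycosyltransferase of the Fringe family (-0.23), Pmm1, a phosphomannomutase (-0.23), and Dgat1, which makes triacylglycerol (-0.18). Oplah overlapped the others because its induced A1 array (5.81) read below its induced A3 array (5.92). The second Pmm1 probe set gave 0.10 log2.

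In ubiquitin and protein handling, all 6 measured members were lower in A3 and 4 were below on both arrays, with a median of -0.31 log2. Desi1, a protease of the deSUMOylating family, read 9.08, 9.10, 8.96 and 9.13 log2, and 8.30 and 8.26 log2 in A3, a shift of -0.79. Its other probe sets were closer to no shift, at -0.16 and -0.00475 log2. Vps28, a subunit of the endosomal sorting complex ESCRT-I, had -0.38, Gga1, an adaptor of vesicles leaving the Golgi, -0.37 and St13, a cochaperone of Hsp70, -0.25 log2. Gga1 was counted as below, although its induced A3 array (8.498) was only just under its induced A1 array (8.503 log2). Sharpin, a subunit of the linear ubiquitin chain assembly complex, read 8.42, 8.35, 8.28 and 8.37 log2, and 8.19 and 8.34 log2 in A3, so that only its control A3 array lay outside the others. Rbx1, the RING subunit of cullin ubiquitin ligases, was the single measured member with a mean below 6 log2. It read 4.73, 5.06, 4.72 and 4.44 log2, and 4.77 and 4.66 log2 in A3, with the A3 arrays inside the range of the others.

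Signalling and secreted proteins were mixed, with 4 of 7 members below, 1 above and a median of -0.42 log2. Cby1, an antagonist of beta-catenin, read 8.27, 8.26, 8.34 and 8.19 log2, and 7.44 and 7.57 log2 in A3, a shift of -0.76. Lgals1, galectin-1, had -0.42 log2 at 11.56, 11.46, 11.60 and 11.41 log2, and 11.09 and 11.08 log2 in A3. Csnk1e, casein kinase 1 epsilon, had -0.43 log2 at 10.02, 9.93, 9.70 and 10.32 log2, and 9.51 and 9.62 log2 in A3. In all 3 genes both A3 arrays were the lowest of the 6, and for Csnk1e the induced A1 array came within 0.1 log2 of the induced A3 array. Ccdc134, a secreted protein, read 6.50, 6.13, 6.87 and 6.46 log2, and 6.12 and 6.02 log2 in A3. Its shift of -0.42 log2 rested on a spread of 0.302 log2 among the other arrays, and its second probe set, at 4.59 log2, gave 0.23.

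Wnt7b, a secreted Wnt ligand, read 7.26, 7.44, 7.37 and 7.34 log2, and 7.51 and 7.50 log2 in A3. Its shift of 0.16 log2 was the highest of the members, and the lower A3 array was above the highest of the others by less than the range among those others. Tab1, which activates the kinase Tak1, read 6.70, 6.65, 6.49 and 6.76 log2, and 6.59 and 6.85 log2 in A3. Its A3 arrays stood on opposite sides of the A1 and A4 values of the same condition. Fbln1, an extracellular matrix glycoprotein, read 9.86, 9.87 and 9.64 log2 in control A1, control A4 and induced A1, higher in induced A4, and 9.81 and 9.76 log2 in A3, a shift of -0.06 inside the range of the others. The other Fbln1 probe sets, at means of 7.45 and 5.39 log2, gave 0.14 and 0.11 log2.

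Of the 2 cytoskeletal members measured, Prph was below and Myh9 overlapped. Prph, the intermediate filament peripherin, read 6.66, 6.74, 6.38 and 6.93 log2, and 5.84 and 5.65 log2 in A3, a shift of -0.93. Its other 3 probe sets, at means of 4.94 to 5.09 log2, gave -0.02, 0.03 and 0.09 log2. Myh9, a heavy chain of nonmuscle myosin II, read 8.86, 9.04, 8.95 and 8.94 log2, and 8.98 and 8.95 log2 in A3. That probe set showed no shift (0.02 log2), but the next, at a mean of 8.93 log2, gave -0.61 log2 and the remaining 3 gave -0.35, -0.39 and -0.14 log2, so Myh9 was lower in A3 on 4 of 5 probe sets. Outside these roles, Gtpbp1, a GTP-binding protein, had a shift of -0.33 log2. Atxn10, ataxin-10, read 12.71, 12.69, 12.67 and 12.83 log2, and 12.65 and 12.66 log2 in A3. Both A3 arrays of Atxn10 were counted as below, although the induced A3 array was lower than induced A1 by less than 0.01 log2, with a shift of -0.07.

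Several probe sets were available for 33 members. All of them were lower in A3 for 17 of these genes, none for 3 (Sun2, Tab1 and Wnt7b), and they were mixed for 13. Over all 109 probe sets of the members, 88 were lower in A3, 67 (61.5%) had both A3 arrays below and 2 above, and the median was -0.33 log2. Josd1 and Tuba1b had only a probe set listed for several symbols, and Hsf1 had none under its symbol in the annotation used, so these 3 listed genes have no value here.

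Along the chromosome, the lower signal in A3 was not confined to the members. Among genes with a mean of at least 6 log2, the 226 other genes from Oplah onward had a median shift of -0.40 log2, with quartiles of -0.67 and -0.10, and 69.5% of them had both A3 arrays below. The 136 genes before Oplah had a median of -0.09 log2 with 38.2% below, and 9015 genes of the other autosomes -0.00851 log2 with 27.6% below. The medians of the other chromosomes lay between -0.05 (chromosome 14) and 0.04 log2 (chromosome X). The members differed from their neighbours in signal: 45 of 46 had a mean of at least 6 log2, against 226 of 391 other genes from Oplah onward. Below 6 log2, the 166 genes from Oplah onward, Rbx1 among them, had a median shift of 0.05 log2.

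**Figure D2:**
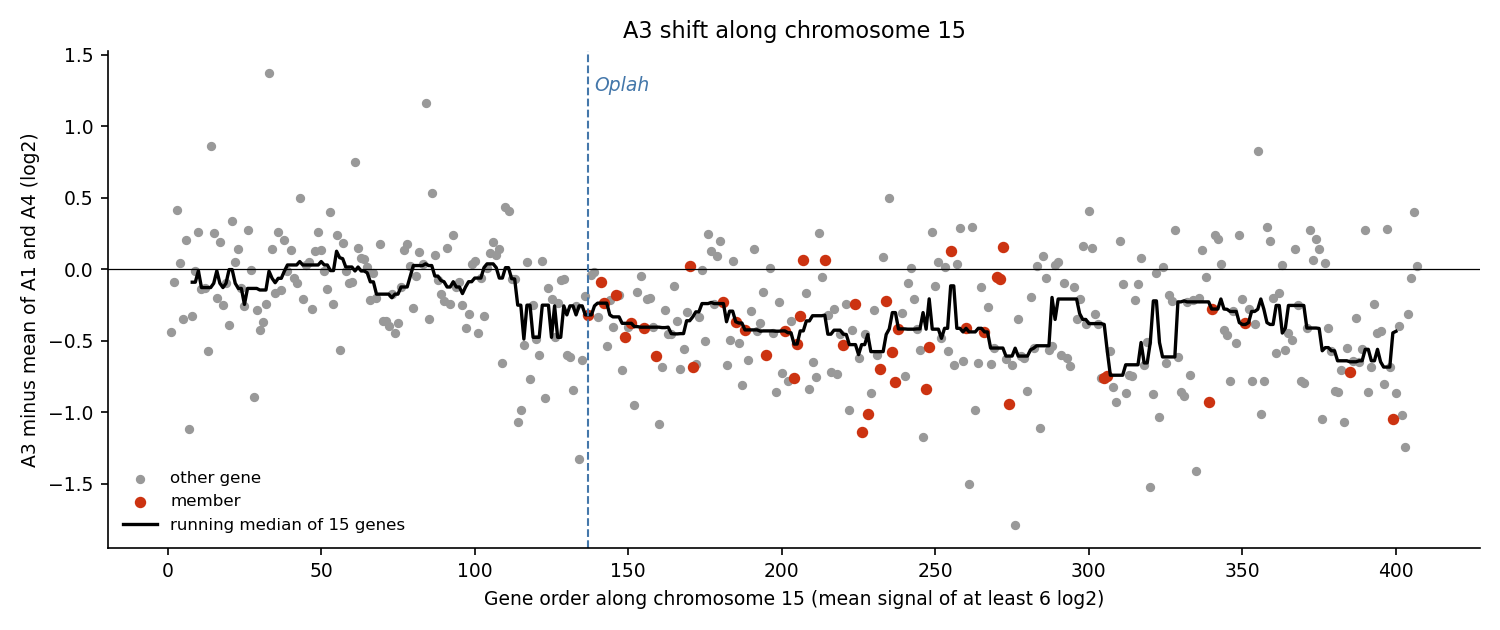
A3 shift (vertical axis, log2) of the 407 genes of chromosome 15 with a mean of at least 6 log2, in gene order (horizontal axis), with members in red, other genes in grey, a running median of 15 genes in black and Oplah, gene 137, at the dashed line. The running median leaves the zero line some genes before Oplah and stays below it to its last point, at Hnrnpa1 (gene 400). The last genes of the chromosome have no running median.

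The change in level did not fall exactly at Oplah. In successive blocks of about 20 genes, the first 6 blocks of the chromosome had medians of -0.11 to 0.01 log2. The last block before Oplah, from Ly6e to Grina, had a median of -0.48 log2 with 18 of 19 genes lower in A3 and 14 below. All 14 blocks from Oplah onward had medians between -0.23 and -0.61 log2. Just outside the list lay Scrib (-0.85 log2), Puf60 (-0.26), Eppk1 (-1.33), Plec (-0.64) and Grina (-0.19), and just inside lay Oplah (-0.32), Sharpin (-0.09), Maf1 (-0.24), Dgat1 (-0.18) and Cpsf1 (-0.47). The list therefore starts inside the stretch that read low in A3. At the far end the last members were Prph (-0.93 log2), Troap (-0.28), Racgap1 (-0.37), Espl1 (-0.72) and Cbx5 (-1.05). After Cbx5 came 8 further genes, of which the last 5 were Itga5 (-1.24), Gtsf1 (-0.32), Nckap1l (-0.06), Pde1b (0.40) and Ppp1r1a (0.03).

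**Figure D3:**
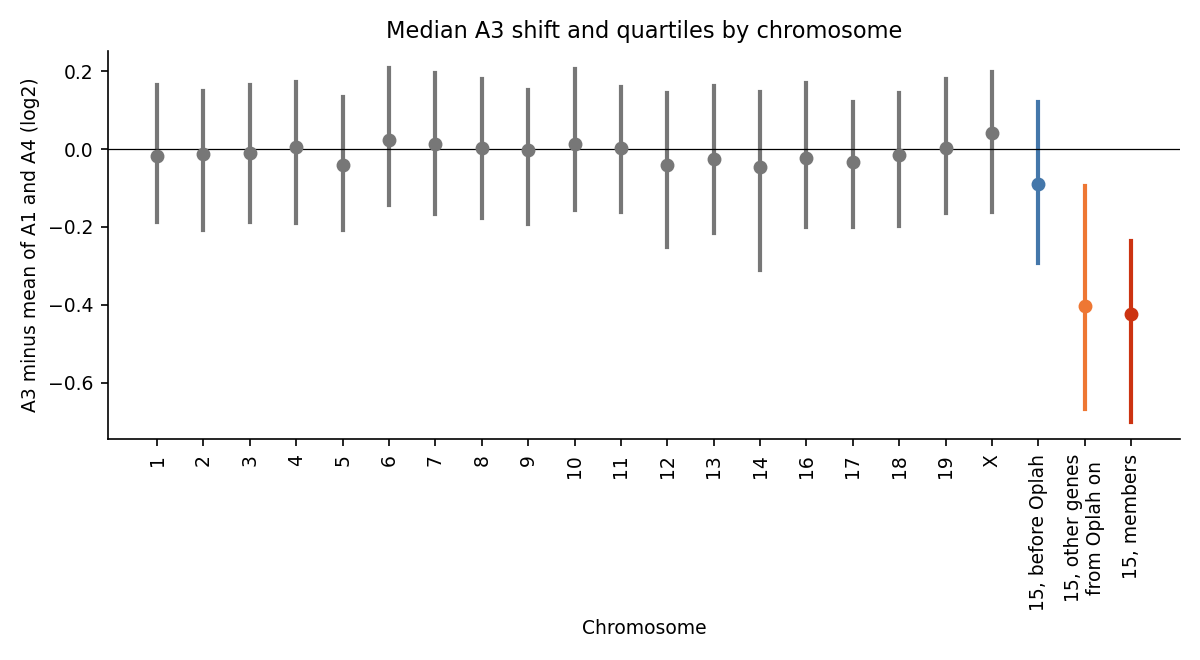
Median (point) and quartiles (line) of the A3 shift (vertical axis, log2) of genes with a mean of at least 6 log2, by chromosome (horizontal axis), with chromosome 15 divided into the 136 genes before Oplah, the 226 other genes from Oplah on and the 45 members. The other chromosomes have medians between -0.05 and 0.04 log2, and the members one of -0.42 log2.

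The shift was uneven from member to member but alike in both conditions. Of the 45 members with a mean of at least 6 log2, 24 lay within 0.25 log2 of the median shift and 13 within 0.25 log2 of no shift, and the SD over members was 0.326 log2, against 0.355 log2 over genes of the other autosomes, of which 63.8% lay within 0.25 log2 of no shift. Some neighbours in gene order differed and others were alike. Wnt7b (0.16) and Gtse1 (-0.94 log2) stood 2 places apart among the genes of the plot of chromosome 15. Ep300 and Rangap1, both beyond -1 log2, also stood 2 places apart. In control arrays alone the median was -0.50 log2 and in induced arrays alone -0.43 log2, and 42 members had the same sign in both. By single pairs of arrays, the median was -0.54 log2 for control A3 minus control A1 (41 of 45 lower), -0.42 for control A3 minus control A4 (44 lower), -0.38 for induced A3 minus induced A1 (37 lower) and -0.44 for induced A3 minus induced A4 (40 lower). Across the 45 members, the shift in control arrays and that in induced arrays had a Pearson r of 0.873 and a Spearman rho of 0.882. These are descriptions over neighbouring genes of the same clones, although the shifts share no array, and the SD over members of their difference was 0.177 log2. The shift had a Spearman rho of -0.194 with mean signal and of -0.274 with gene order over the same 45 members. In bands of signal, the 10 members from 6 to 8 log2 had a median of -0.37 with 6 below. The 16 from 8 to 10 log2 had one of -0.39 with 12 below. The 19 of at least 10 log2 had one of -0.47 with all 19 below. Among all genes from Oplah onward, members included, 51.8%, 83.2% and 91.1% were below in the same bands. The medians of those genes were -0.205, -0.538 and -0.436 log2. The share below therefore rose with signal over the whole region, and these counts are not read as particular to the members.

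**Figure D4:**
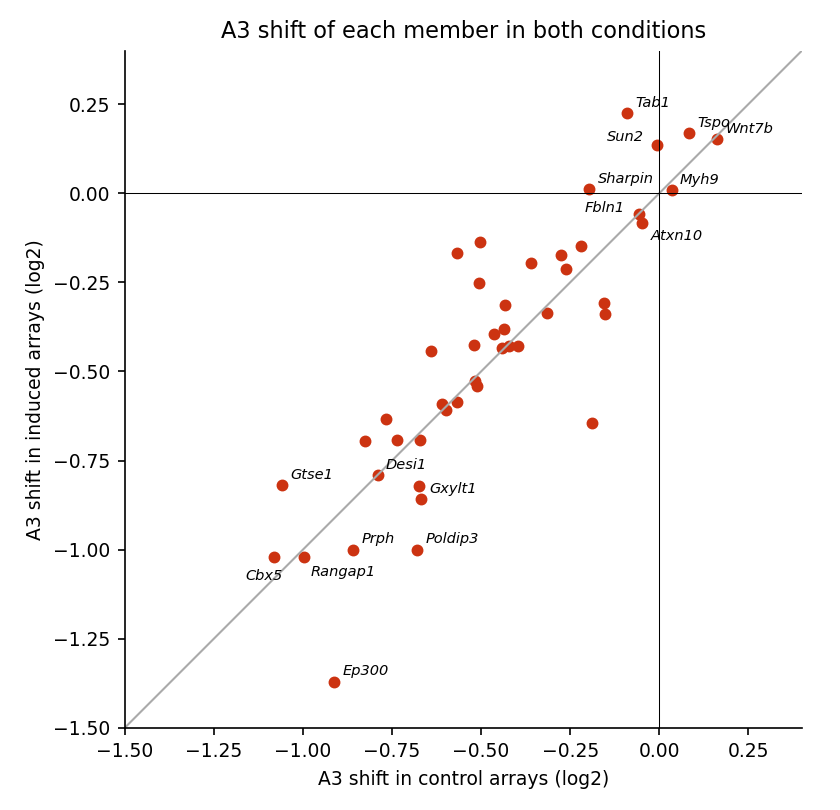
A3 minus the mean of A1 and A4 in control arrays (horizontal axis, log2) and in induced arrays (vertical axis, log2) for the 45 members with a mean of at least 6 log2, with the line of equality in grey and the 8 lowest and 8 highest members named. Most points lie near the line, and Ep300 is lower in induced arrays (-1.37) than in control arrays (-0.91).

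Read as a dosage, the members' median ratio of 0.745 lay between the ratios of 1 copy to 2 (0.5) and of no change. The quartiles of the shift were ratios of 0.615 and 0.849, and single members ran from 0.453 for Ep300 to 1.12 for Wnt7b. This reading takes A1 and A4 to hold 2 copies, which was assumed and not measured. A lower number in A3 and a higher number in both A1 and A4 cannot be told apart by a ratio. On the log2 scale 19 of 45 members (42.2%) were nearer to 1 copy than to 2. A further 26 were nearest to 2, with 0 nearest to 3 or 4. The same reading put 41.2% of the other genes from Oplah onward, 11.8% of the genes before Oplah and 6.53% of genes on the other autosomes nearest to 1 copy. With the median over all probe sets of a gene in place of the probe set of highest mean, an alternative added after seeing the data, 13 members were nearest to 1 copy, and Cbx5, Prph, Desi1, Polr2f, Xrcc6 and Cyb5r3 no longer were. By the probe set of highest mean, Ep300, Cbx5 and Rangap1 had a ratio under 0.5. Copy number was not measured in these samples, and RMA signals of microarrays tend to understate ratios, so a ratio here is not a count of copies and a change in only some cells of the culture cannot be told apart from a change in all.

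The study asked which mouse genes changed after 24 h without tetracycline, and no member passed that test. In limma, 0 of 46 members were called, as were 0 of 45037 probe sets (0% called, and 676 had an unadjusted p under 0.05), and 0 members had an unadjusted p under 0.05. The members' changes, induced minus control, had a median of -0.00772 log2, with 21 higher and 25 lower. The largest were those of Rbx1 (-0.25 ± 0.13 log2, SE) and Ccdc134 (0.20 ± 0.22), followed by p by Tspo (0.11 ± 0.12), each with a limma adjusted p of 0.999942. The value of Rbx1 rested on A4, where the control array read 5.06 and the induced array 4.44 log2, and A1 and A3 changed by -0.00816 and -0.11 log2. For 45 of the 46 members the 95% interval of the change excluded 1 log2 in either direction, Cbx5 (-1.06 to 0.67 log2) being the exception, and for 23 it excluded 0.5 log2. Without a clone term the A3 shift, on which the members were in effect selected, entered the spread and weakened this test for them. With the clone as a block, since the arrays of a clone are paired, 0 members were called. The median SE of the members was then 0.099 in place of 0.19 log2, and the interval excluded 0.5 log2 for 45.

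By clone, the 45 members with a mean of at least 6 log2 changed on induction by a median of -0.06 log2 in A1 (31 lower), 0.02 in A3 (20 lower) and 0.06 in A4 (17 lower). Their lowest single values were -0.58 in A1 (Gga1), -0.35 in A3 (Ep300) and -0.26 log2 in A4 (Cbx5). The SD over members was 0.192, 0.118 and 0.132 log2 in A1, A3 and A4, beside 0.198, 0.152 and 0.165 log2 over all genes of at least 6 log2. On all 45037 probe sets, 63 moved on induction by 1 log2 or more in opposite directions, up in A1 and down in A4, and 0 of the members' 109 probe sets were among them. With 1 array for each clone and condition these values by clone have no test of their own.

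Whether the members responded to induction differently in A3 was tested as a term in the fit, in which A3 has 1 array for each condition and the spread comes from A1 against A4 alone. Limma called 0 of 46 members, with 0 of 45037 probe sets called (0%) and 3060 at an unadjusted p under 0.05, and 0 members were at an unadjusted p under 0.05. The median difference between the induction in A3 and that in A1 and A4 was 0.01 log2. Ep300 changed by -0.35 log2 in A3 and by 0.05 and 0.18 log2 in A1 and A4, a difference of -0.46 ± 0.20 log2 (SE, 95% interval -0.94 to 0.01, limma adjusted p 0.74). Ccdc134 differed by -0.45 ± 0.20 log2 (95% interval -0.92 to 0.01, limma adjusted p 0.74) and Oplah by 0.37 ± 0.23 log2 (limma adjusted p 0.83). For these genes the difference did not pass the test, and the fit had 1 residual degree of freedom beside limma's prior, so that the variation of induction within A3 is assumed and not measured.

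A1 and A4 were compared with each other, a contrast that holds no A3 array. Limma called 0 of 46 members, where 8 of 45037 probe sets were called (0.0178%), all 8 lower in A1. The members' differences, A1 minus A4, had a median of -0.01 log2 and quartiles of -0.10 and 0.07 log2. The 95% interval lay within 1 log2 of no difference for all 46 members and within 0.5 log2 for 39. Ccdc134 was higher in A1 by 0.39 ± 0.15 log2 (SE, 95% interval 0.05 to 0.72), Tspo lower by 0.27 (-0.27 ± 0.11 log2, interval -0.53 to -0.00667) and Prph lower by 0.32 (-0.32 ± 0.14 log2, interval -0.65 to 0.01), each with a limma adjusted p of 1. These were the members with the smallest p, and the first 2 were the members at an unadjusted p under 0.05. The 391 other genes from Oplah onward had 0 calls in each of these 3 comparisons.

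**Figure D5:**
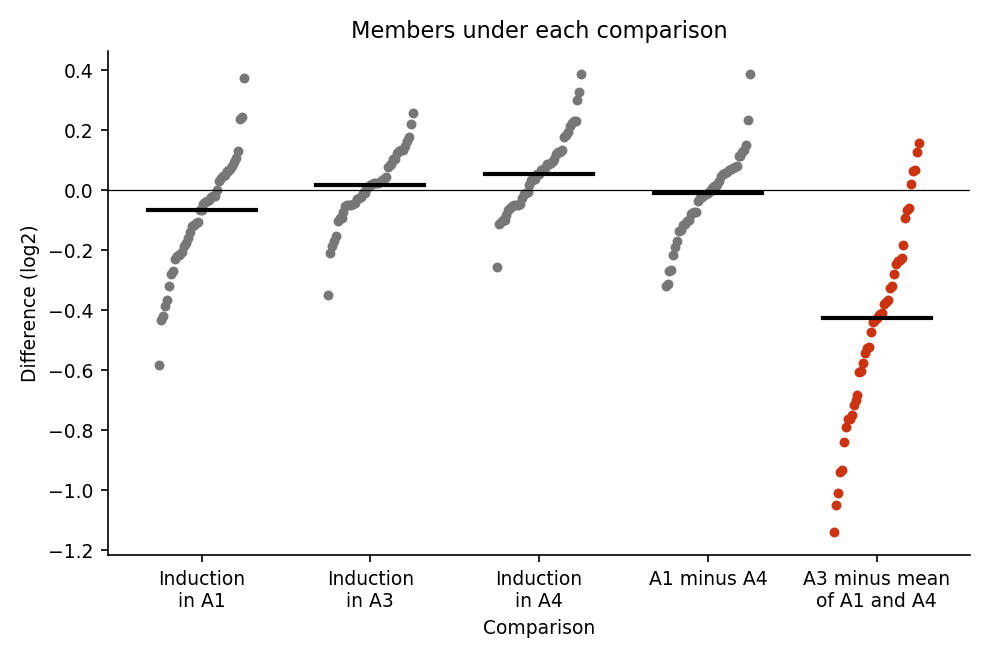
Log2 differences (vertical axis) of the 45 members with a mean of at least 6 log2 under induction within A1, A3 and A4, under A1 minus A4 (mean over both conditions) and under A3 minus the mean of A1 and A4 (horizontal axis), with 1 point for a member and a black bar at the median. Medians lie between -0.06 and 0.06 log2 for the first 4 and at -0.42 log2 for the last, which proposed the region.

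Genes on other chromosomes or before Oplah whose proteins work with those of the members were listed by complex, and 79 of 86 were measured. None passed a test of induction, of A1 minus A4 or of the induction in A3 (0 of 79 each, higher or lower). In A3 their shift had a median of -0.08 log2, with 52 lower and 27 higher, 25 below (31.6%) and 16 above, while all genes of at least 6 log2 had a median of -0.01 log2 with 28.8% below. The 65 partners in complexes alone had a median of -0.07 log2 with 18 below (27.7%). Xrcc5, the Ku80 partner of Xrcc6, read -0.08 log2, Kif23, the centralspindlin partner of Racgap1, 0.25, and Sf3b1, the large subunit that holds Phf5a, 0.02 log2. Partners in the same complexes were not all alike. Prkdc, listed with Ku, read -0.78 log2, and Sf3b3, Sf3b4 and Sf3b5 read -0.24, -0.26 and -0.24 log2, each with both A3 arrays below. Sf3b2 (0.10), Sf3b6 (-0.07) and Ect2 of centralspindlin (-0.06 log2) overlapped the other arrays. Ring1 (-0.42) and Rnf2 (-0.365 log2), partners of Yaf2, were below. In RNA polymerase II, where Polr2f read -0.60 log2, Polr2a, the largest subunit, read -1.26 log2 and the other 8 measured subunits between -0.14 and 0.22 log2. Crebbp, the paralog of Ep300, read -0.63 log2 with both A3 arrays below. Of the other HP1 proteins, Cbx1 read -0.31 log2 and Cbx3, at a mean of 5.82, 0.34 log2.

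Known targets of 2 listed regulators, Hsf1 and Foxh1, were also read, although Hsf1 itself has no value here. Heat shock factor targets, the chaperone genes that Hsf1 activates under stress, were lower in A3 for 9 of 10 genes. Both A3 arrays were below for 7 (70.0%), and the median was -0.19 log2. Among all genes of at least 6 log2, 28.8% were below and 24.7% above. Hspa1b, an inducible Hsp70, read -1.10 and Hsp90aa1, an inducible Hsp90, -0.54 log2, while Bag3, an Hsp70 cochaperone, read 0.69 log2. Of 4 targets of Nodal and Foxh1, Lefty1 (1.38) and Lefty2 (0.74 log2), which encode secreted Nodal inhibitors, had both A3 arrays above, and Nodal (-0.02) and Gsc (-0.15 log2) overlapped the others. The Gsc signal was dim, at a mean of 3.21 log2, so nothing is read from its overlap. These are descriptions of 1 clone, and their relation to the members was not tested.

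Outside chromosome 15, the genes whose pattern over the 6 arrays was most like the members' median were Kat2a, a histone acetyltransferase (Pearson r 0.9973), Mael, a piRNA pathway protein (0.9964), Ino80d, a subunit of the INO80 chromatin remodeller (0.9962), Cpt1a, which starts the import of fatty acids into mitochondria (0.9944), and Grtp1 (0.9941). They are the highest of 9313 genes compared over only 6 arrays, of which 2 stand apart, so any gene low in A3 scores high. Their own shifts ran from -0.28 log2 for Kat2a to -1.63 log2 for Mael.

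The promoter windows of the members were rich in G and C. Their median GC content was 64.3% with 25 CpG dinucleotides in 300 bases, against 60.7% and 16.5 in windows of the other genes from Oplah onward and 52.7% and 7 over all 32851 windows. A GC content over 50% together with a CpG ratio, observed over expected, above 0.6 was found in 33 of 37 member windows (89.2%), in 176 of 352 windows of the other genes from Oplah onward and in 33.3% of all windows. The GC box (GGGCGG, either strand) stood in 30 of 37 member windows (81.1%) and 35.7% of all, the CCAAT box (CCAAT) in 48.6% and 37.4%, and the ETS core (CCGGAAG) in 21.6% and 8.86%. The E-box (CACGTG) stood in 10.8% and 7.15%, the NRF1 core (CGCATGCG) in 5.41% and 1.87%, and the TATA box (TATAAA) in 5.41% and 13.6%. The members were also more often above 6 log2 than genes at large, and letters shared by windows are a description of the listed genes and not of the shift. Windows of Ep300 (72.3% GC, 30 CpG) and Sun2 (71.3%, 39 CpG) were alike in composition, while their shifts were -1.14 and 0.06 log2.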

How the data were processed

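RNA of 3 clones in 2 conditions was hybridized by the authors to Affymetrix GeneChip Mouse Genome arrays. The deposited values are log2 signals that the authors made by robust multiarray average (RMA) with the affy package of Bioconductor (version not given in the sources used here), and they were used without further normalization. Of 45101 probe sets, 64 Affymetrix controls were left out. The platform annotation gave 1 symbol for 34945 of the rest, several for 932 and none for 9160, and 34741 were matched to a RefSeq gene table (GRCm38.p6) for chromosome and gene order. Microarray files hold no counts, and the number of arrays limits the precision.

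Groups, clones and times were taken from the sample labels. Differences were tested with limma 3.58.1 (lmFit, eBayes) under R 4.3.3, two-sided, with Benjamini-Hochberg adjustment over 45037 probe sets at 0.05: induced minus control without a block (the study's methods name a per-gene t-test and mention no pairing), A1 minus A4 with condition as a term, and induction in A3 minus that in A1 and A4 with clone as a term. Same-numbered arrays came from the same clone by their labels. Deviations from the group means correlated within a clone at r = 0.313 (A1), 0.67 (A3) and 0.29 (A4). Between clones, control A1 with induced A4 gave 0.348 and control A4 with induced A1 gave 0.369. The correlations therefore set apart A3 only, and the pairing within A1 and A4 rests on the labels. The fits were also run on simulated data, which for induction held no difference between clones. That run therefore does not cover the precision that the unblocked test of induction loses through the A3 shift. A gene is given by its probe set with the highest mean. Members were named for the 8 lowest and 8 highest A3 shifts, the 4 nearest the median, the 3 smallest p of each test, the 3 of highest mean and a mean below 6 log2, together with the genes at both ends of the list; other members are given so that each is accounted for. Members and lists (roles, partners, markers) were chosen with earlier results of these data known. Alternatives were the replicate block, the study's t-test, eBayes options, other normalizations, filters on dim or shared probe sets, all probe sets of a gene, and leaving out arrays or clones. The RefSeq promoter table (GRCm38.p6) supplied sequences; probe sequences were not used here. Plots were drawn with matplotlib 3.10.9.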

Additional observations from a re-analysis of the deposited data

How the results depend on the processing

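In limma, 0 members were called for induction, for A1 minus A4 and for the induction in A3 under every alternative that was run, including the study's t-test. With the replicate block, which pairs the arrays of a clone, 0 members were called for induction (1539 of all probe sets had an unadjusted p under 0.05), and 45 members had a 95% interval that excluded 0.5 log2 in either direction, against 23 without it. The median A3 shift of the members, -0.421 log2, became -0.345 log2 with the median over all probe sets of a gene and -0.180 log2 over all genes from Oplah onward, dim ones included. In the other alternatives it lay between -0.386 (cyclic loess) and -0.483 log2 (control arrays alone), and the SD over members between 0.3 and 0.364 log2, with 0.286 log2 for the median over all probe sets. Of single values, the shift of Prph became 0.00528 log2 with the median over its probe sets and the induction of Ccdc134 ran from -0.00926 log2 without induced replicate 1 to 0.415 log2 without induced replicate 2, where the cause was not tested. Of the other recomputed shifts of single members, 661 moved by less than the spread between arrays and 27 by more. The dosage reading stayed at 19 members nearest to 1 copy relative to the other autosomes and was 13 with the median over all probe sets, an alternative chosen after seeing the data. The induction in A3 could not be fitted with clone as a term without any array or clone, A1 minus A4 needs both clones and the A3 shift needs A3, so these were not run. Signal over background limits the dim probe sets: below 6 log2 the 166 genes from Oplah onward had a median shift of 0.05 log2.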
